A study of Mus musculus with 9 samples.

Results

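The genes described here are 10 that mark type 1 lymphocytes or set their balance with type 2 cells: Tbx21, Eomes, Ifng, Stat4, Il12rb1, Il12rb2, Il2rb, Il18r1, Il18rap and Gata3. They were chosen by name, with earlier results of these data known. The rule took every probe whose gene name in the scanner files was one of these symbols, and used no measured value. It found 12 probes, among 41174 probes for 27670 named genes on the array. In all, 8 genes had 1 probe each, and Ifng and Il18rap had 2 each. A filter on dim probes kept 10 of the 12 probes, standing for 9 genes, and removed both Il18rap probes.

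RNA came from cells of the prostate of BL6 mice, sorted by FACS (fluorescence-activated cell sorting) into 2 fractions, both described in the design as lineage-negative. The marker-positive fraction, CD44+CD133+Sca-1+CD117+ and labelled as stem cells, was measured on 3 arrays, called P1 to P3 here. The marker-negative fraction, CD44-CD133-Sca-1-CD117- and labelled as non-stem cells, was measured on 6 arrays, called N1 to N6. Each array compared amplified sample RNA (Cy5) with a common pool of mouse RNA (Cy3, Universal Mouse Reference). The age of the mice, the antibodies behind the lineage gate and any pooling of animals are not given in the sources used here. All arrays of a group carry the same identifier in the labels, which do not say that they came from separate animals. The p-values therefore rest on the spread among these arrays alone, which may be technical, and the number of arrays limits the precision.

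Every level below is a log2 ratio of Cy5 to Cy3 on 1 array, and every difference is the marker-positive mean minus the marker-negative mean. A level of 0 means that of the reference pool where both channels were above background. Where both were at background, a value near 0 does not compare the sample with the pool. The reference channel was well above background on none of the 9 arrays at Eomes, Il18r1 and 1 Il18rap probe. A difference passed when limma's moderated test gave an adjusted p (Benjamini-Hochberg over 28340 tested probes) under 0.05. Cy5 was well above background at 45.4% to 69.3% of probes on marker-positive arrays and at 47.5% to 69.5% on marker-negative arrays. P3 stood apart: across probes it correlated at 0.609 and 0.582 with P1 and P2, which reached 0.923 with each other, and at 0.677 and 0.676 with N4 and N6. The arrays lay on 5 slides, of which slide 1 (P1, N1) and slide 2 (P2, N2, N4) held both groups. Prostate secretory genes were above the reference on all 9 arrays, with a mean over 8 genes of 5.21 to 6.0 in the marker-positive group and 6.71 to 7.97 in the marker-negative group.

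Type 1 lymphocytes are natural killer cells, group 1 innate lymphoid cells, T helper 1 cells and cytotoxic T cells, which answer infected or transformed cells with interferon gamma. Interleukin-12, interleukin-18 and interleukin-15 from myeloid cells signal through their own receptors, and STAT4 carries the interleukin-12 signal. The T-box factors T-bet (Tbx21) and eomesodermin (Eomes) switch on Ifng. GATA3 drives the opposing type 2 programme in T cells, and is also a factor of luminal epithelium in several glands, the prostate included.

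Tbx21 and Ifng were the members with the largest differences, and the 250 bases before their start sites are shown so that both starts can be compared. RefSeq windows (GRCm38.p6, 250 bases before to 50 bases after the start) were matched for 8 of the 10 genes, at 11 start sites. Each window was searched on both strands for a TATA box (TATAAA), a T-box half-site (GGTGTGA), a STAT site (TTCNNNGAA), a GATA site (AGATAA) and a RUNX site (TGTGGT), none of which overlapped another in these windows. Capitals mark the matches. The Tbx21 stretch is chr11:97115332-97115581, minus strand, and the Ifng stretch is chr10:118440796-118441045, plus strand.
Tbx21: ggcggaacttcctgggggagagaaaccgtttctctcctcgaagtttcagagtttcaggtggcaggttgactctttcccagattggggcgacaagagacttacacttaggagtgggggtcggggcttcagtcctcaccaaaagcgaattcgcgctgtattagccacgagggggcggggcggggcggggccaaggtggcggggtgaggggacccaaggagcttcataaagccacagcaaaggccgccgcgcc
Ifng: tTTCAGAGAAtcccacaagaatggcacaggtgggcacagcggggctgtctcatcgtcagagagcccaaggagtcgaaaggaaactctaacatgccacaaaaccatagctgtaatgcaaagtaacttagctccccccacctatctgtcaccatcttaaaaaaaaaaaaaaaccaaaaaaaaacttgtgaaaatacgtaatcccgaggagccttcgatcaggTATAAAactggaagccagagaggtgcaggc
The Ifng stretch held a TATA box starting at position -30 from the start site and a STAT site at -249, and the Tbx21 stretch held none of the 5 motifs. The 32851 mouse windows searched for comparison also held the 50 bases after the start, so they are longer than these stretches. Of those windows, 13.6% held the TATA box and 8.3% the STAT site, against 3.98% for the T-box half-site, 11.2% for the GATA site and 16.8% for the RUNX site. The Tbx21 stretch had 60.8% GC and 16 CpG dinucleotides, and the Ifng stretch 45.2% GC and 6. Windows of Eomes, Stat4 and Gata3 held none of the 5 motifs. These matches describe letters in a window, and no binding was measured.

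In the marker-positive cells the transcripts of the type 1 master factor and its cytokine were lower: Tbx21 by 29.3-fold and Ifng by 18.2-fold and 40.6-fold at its 2 probes. Ifng was well above background on 1 of 3 marker-positive arrays (P3), so its folds are set mostly against background. Both Ifng probes met the filter on dim probes through the marker-negative group. Of the 10 tested probes 3 were lower and 0 higher, while over all tested probes 1.98% were lower and 1.47% higher, 3.45% in both directions. Counted as genes, 2 of 9 were lower and 0 higher, against 1.67% and 1.57% of 19857 tested genes, 3.24% in both directions. At an unadjusted p under 0.05 (limma), 6 member probes were lower and 1, Il18r1, was higher, where 10.6% of all tested probes were lower and 9.11% higher. The groups did not overlap at 4 of the 9 genes, Tbx21, Eomes, Ifng and Gata3, all lower in the marker-positive group, against 11.6% of all genes. The median member difference was -1.18, with 8 of 9 genes below 0, beside -0.01 over all genes. The receptors for interleukin-12 and interleukin-18 and Stat4 did not pass. With slide as a fixed block no member probe passed, and 20 genes in all were then lower.

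**Figure D1:**
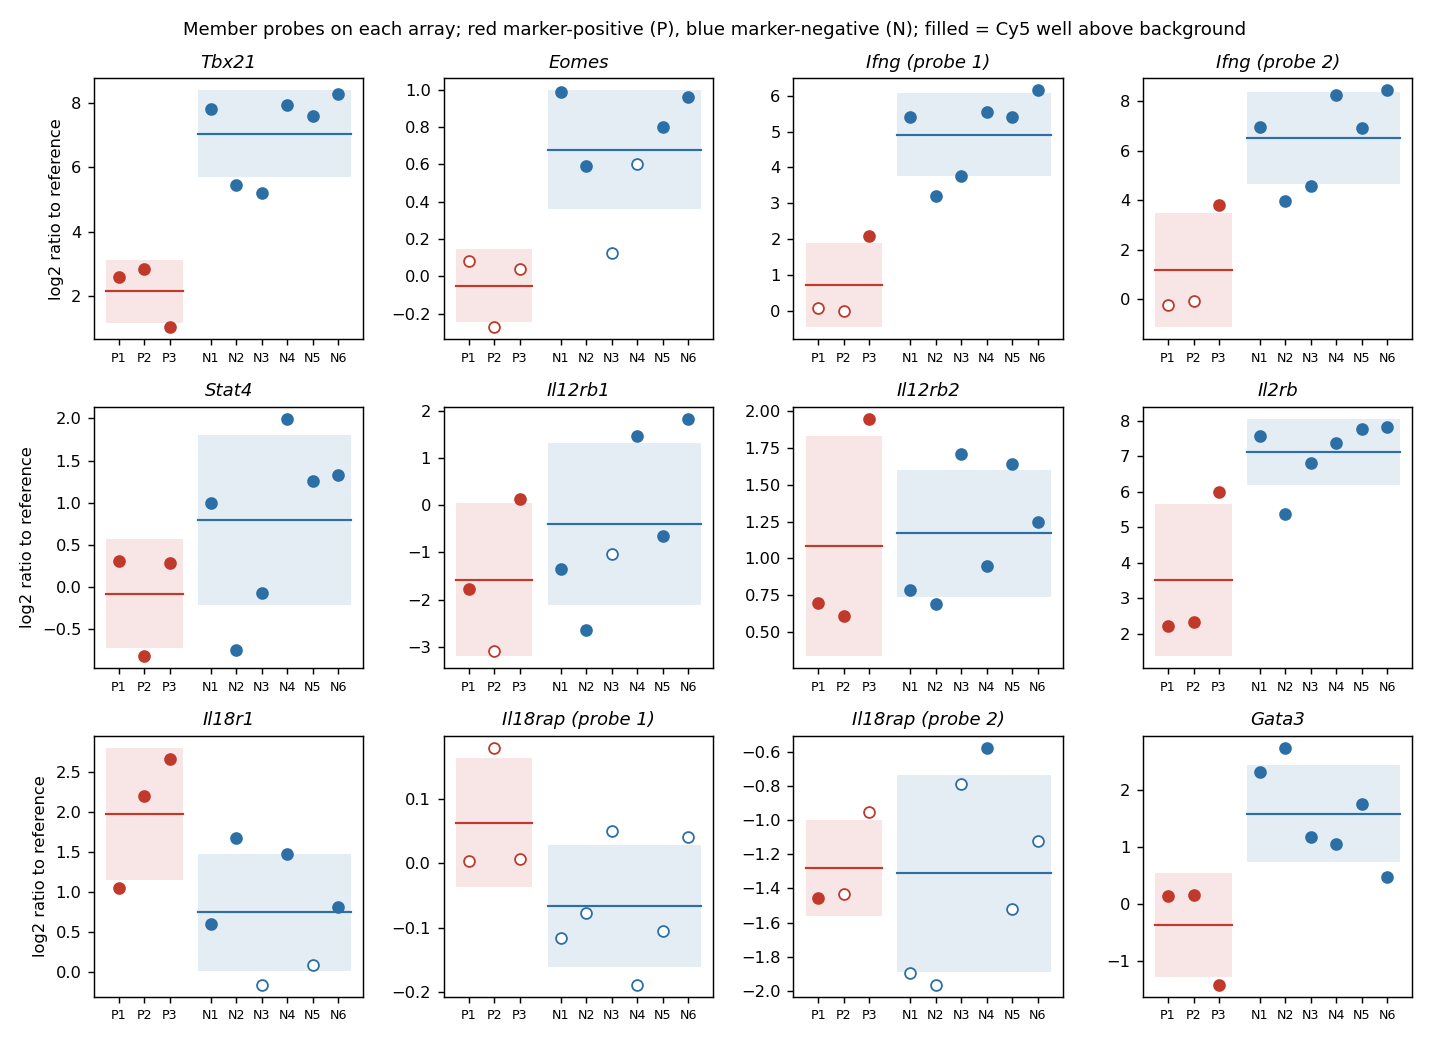
Log2 ratio to the reference (vertical axis) of each of the 12 member probes on each array, red for marker-positive and blue for marker-negative, with the group mean as a line and 1 SD as a band. Filled points were well above background in Cy5. Tbx21, Eomes, both Ifng probes and Gata3 have no overlap between groups, P3 joins the marker-negative range at Il2rb, and Il18rap probe 1 stays near 0.

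Tbx21 encodes T-bet, the T-box factor that commits lymphocytes to the type 1 fate. Its probe lies on chromosome 11, 97207142 to 97207201 of build mm7. The log2 ratio was 2.59 on P1, 2.84 on P2 and 1.04 on P3, and in the marker-negative group it ran from 5.19 (N3) to 8.26 (N6) with a median of 7.69. All marker-positive arrays lay below all marker-negative arrays, and within the latter N2 (5.45) and N3 stood below the other 4. The means were 2.16 ± 0.97 (SD, n = 3) and 7.03 ± 1.35 (SD, n = 6), a difference of -4.87 (SE 0.78, limma adjusted p = 0.0119). Within slide 1 the difference was -5.20 and within slide 2 it was -3.84. The call held without any 1 array, and ended with slide as a fixed block (-4.42, adjusted p = 0.175) or with median centring in place of loess (-4.20, adjusted p = 0.0585). Tbx21 was well above background on all 9 arrays, so the marker-positive cells had a measured, lower level. In bulk RNA, fewer cells with the transcript and less transcript per cell cannot be told apart.

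Ifng encodes interferon gamma, the cytokine that activates macrophages and raises antigen presentation. Both probes lie on chromosome 10 of build mm7, at 117840860 to 117840919 (probe 1) and 117841087 to 117841146 (probe 2), with 167 bases between them. Probe 1 read 0.08 on P1, 0.01 on P2 and 2.08 on P3, and from 3.20 (N2) to 6.15 (N6) with a median of 5.40 in the marker-negative group. Probe 2 read -0.23, -0.07 and 3.83 on P1, P2 and P3, and from 3.97 (N2) to 8.45 (N6) with a median of 6.93. The groups did not overlap at either probe, but P3 (3.83) came close to N2 (3.97) at probe 2. Among marker-positive arrays, P3 was the 1 array on which Ifng was well above background at either probe, while all 6 marker-negative arrays were. P3 was also the lowest of the 9 arrays for Tbx21, so the order of the marker-positive arrays differed between the factor and the cytokine.

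At probe 1 the Ifng means were 0.72 ± 1.18 (SD, n = 3) and 4.91 ± 1.15 (SD, n = 6), a difference of -4.19 (SE 0.73, limma adjusted p = 0.0171). At probe 2 the means were 1.18 ± 2.30 (SD, n = 3) and 6.52 ± 1.87 (SD, n = 6), a difference of -5.34 (SE 1.22, limma adjusted p = 0.0465). Without P3 both probes passed (limma adjusted p = 0.00926 and 0.0149), but P1 and P2 were then at background and the size has only a bound. On normalized Cy5 values, Ifng was at least 63.5-fold higher in the marker-negative group at probe 1 and at least 107-fold higher at probe 2 without P3. Within slide 1 (P1, N1) it was at least 78.8-fold and 121-fold higher on N1, and within slide 2 (P2, N2, N4) at least 63.5-fold and 101-fold higher on N2 and N4. These Cy5 bounds leave out P3, while the folds of the ratios to the reference given above include it, so the 2 cover different arrays. As ratios to the reference, the differences without P3 were -4.87 at probe 1 and -6.67 at probe 2. The Cy3 signal at this gene also differed between arrays (given with the channels). The probe 1 call ended without P1 (-3.86, adjusted p = 0.0868), without P2 (-3.83, adjusted p = 0.0819) and with slide as a fixed block (-4.77, adjusted p = 0.121). The probe 2 call, nearer the threshold, also ended without N1, N4, N5 or N6, as well as without P1 or P2, at differences between -5.26 and -4.64.

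Probe 1 of Ifng was printed 10 times on each array, which separates spot error from the spread between arrays. All 10 spots were kept here, including outlier spots that the tests dropped, of which N3 had 4. The SD over the 10 spots within an array had a median of 0.07 and ran from 0.03 to 0.17. The SD of the array means was 1.18 in the marker-positive and 1.16 in the marker-negative group. Spots of 1 array therefore varied far less than arrays of 1 group, and the highest spot of P3 (2.40) stayed below the lowest spot of N2 (3.05).

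**Figure D2:**
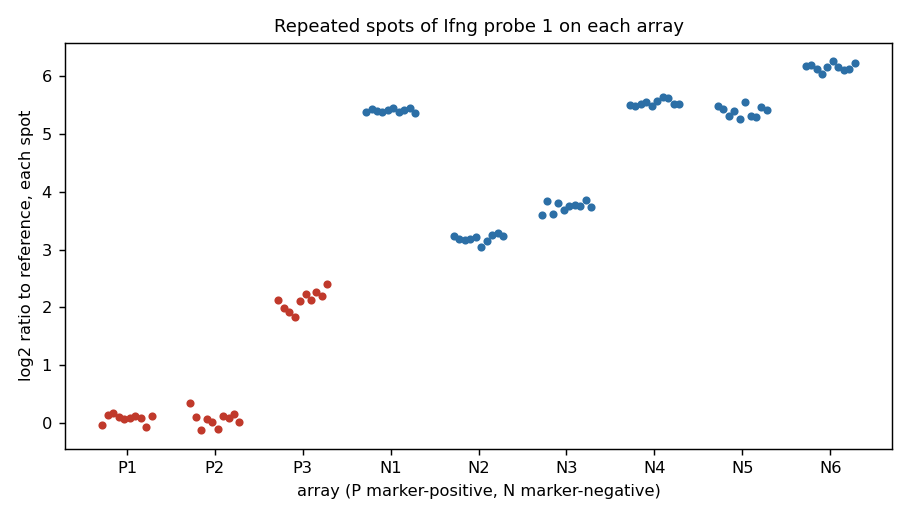
Log2 ratio of each of the 10 spots of Ifng probe 1 (vertical axis) on each array (horizontal axis), red for marker-positive and blue for marker-negative. The spots of an array form a tight cluster, P1 and P2 lie near 0, P3 near 2.12, and the lowest marker-negative array is N2.

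Eomes encodes the T-box factor that acts beside T-bet in natural killer and memory CD8 cells (probe on chromosome 9, 118163832 to 118163891, mm7). It read 0.08, -0.27 and 0.04 on P1, P2 and P3, and from 0.12 (N3) to 0.99 (N1) with a median of 0.70 in the marker-negative group. The groups did not overlap, though P1 and N3 lay side by side. The difference was -0.73 (SE 0.19, limma adjusted p = 0.0705) and did not pass. Eomes was well above background on 0 of 3 marker-positive arrays, on 4 of 6 marker-negative arrays and on none of the 9 in the reference channel, so it entered the test through that group alone. Set against the background of the marker-positive arrays, it was at least 1.29-fold higher in the marker-negative group. Without N3 the difference passed (-0.84, adjusted p = 0.0215), and with the scanner's processed signals it was -3.02 (adjusted p = 0.0583).

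Stat4 encodes the kinase-activated factor that carries the interleukin-12 signal (probe on chromosome 1, 52340536 to 52340595, mm7). It read 0.30, -0.82 and 0.28 on P1, P2 and P3, and from -0.75 (N2) to 1.99 (N4) with a median of 1.13 in the marker-negative group. The groups overlapped, and the difference of -0.87 (SE 0.59, limma adjusted p = 0.464) was within the spread. N2 and N3, the marker-negative arrays with the least Tbx21, also had the least Stat4.

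Gata3 encodes the type 2 and epithelial factor GATA3 (probe on chromosome 2, 9796514 to 9796573, mm7). It read 0.15 on P1, 0.17 on P2 and -1.42 on P3, and from 0.47 (N6) to 2.74 (N2) with a median of 1.47 in the marker-negative group. The groups did not overlap, and Gata3 was lower in the marker-positive group, on the same side as Tbx21. The means were -0.37 ± 0.91 (SD, n = 3) and 1.59 ± 0.85 (SD, n = 6), and the difference of -1.96 (SE 0.55, limma adjusted p = 0.0908) did not pass. Within slides 1 and 2 it was -2.17 and -1.73. Before normalization the net Cy5 intensities did overlap, at 84.4 (P3), 1884 (P2) and 2341 (P1) against 781 (N6) to 13133 (N2).

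Within the marker-negative group Gata3 did not follow the order of Tbx21. N6 had the most Tbx21 (8.26) and the least Gata3 (0.47), and N2 had the most Gata3 (2.74) with little Tbx21 (5.45). The mean over 15 luminal epithelial markers was also highest on N2 (4.14), and within that group it was lowest on N4 (2.64) and N6 (2.65). It was 2.5, 2.56 and 0.23 on P1, P2 and P3, so P3 was lowest of all for these markers and for Gata3, and whether the luminal content of the arrays bears on Gata3 was not tested. Over the 9 arrays the 5 tested genes with the highest Pearson r to Gata3 were Dnajc10 (0.986), 9330162012Rik (0.985), Dexi (0.983), Tmtc4 (0.978) and Sec23b (0.977), none of them a gene of the lymphocyte lists. Over the 6 marker-negative arrays alone their r ran from 0.947 to 0.972. These values describe 9 arrays that share 2 groups and 1 reference, and carry no test.

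Il2rb encodes the beta chain shared by the receptors for interleukin-2 and interleukin-15, which natural killer cells need to survive. Its probe is placed on 15_random, an unplaced part of chromosome 15 in mm7, at 1692977 to 1693036. It read 2.22 on P1, 2.34 on P2 and 5.99 on P3, and from 5.38 (N2) to 7.81 (N6) with a median of 7.48 in the marker-negative group. P1 and P2 lay below every marker-negative array, while P3 lay above N2. The means were 3.52 ± 2.14 (SD, n = 3) and 7.12 ± 0.93 (SD, n = 6), and the difference of -3.60 (SE 0.85, limma adjusted p = 0.0517) missed the threshold. Without P3 it was -4.83 (adjusted p = 0.00449), and without N2 it was -3.95 (adjusted p = 0.0449). Within slides 1 and 2 it was -5.34 and -4.04.

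None of the receptor genes for interleukin-12 and interleukin-18 passed. Il12rb1, the subunit shared with the interleukin-23 receptor (chromosome 8, 69275795 to 69275854, mm7), read -1.79, -3.08 and 0.14 on P1, P2 and P3, and from -2.64 (N2) to 1.82 (N6) with a median of -0.84 in the marker-negative group. Its difference was -1.18 (SE 1.04, limma adjusted p = 0.587), and the groups overlapped. Il12rb2, the signalling subunit that T-bet maintains in T helper 1 cells (chromosome 6, 67274567 to 67274626, mm7), read 0.70, 0.61 and 1.94 on P1, P2 and P3, and from 0.69 (N2) to 1.70 (N3) with a median of 1.10. The group means were within 0.09 of each other (difference -0.09, SE 0.34, limma adjusted p = 0.93), and the sign turned without P1, P2, N3 or N5.

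Il18r1, the ligand-binding chain of the interleukin-18 receptor, was the 1 tested member with a difference above 0 (chromosome 1, 40741012 to 40741071, mm7). It read 1.06, 2.20 and 2.65 on P1, P2 and P3, and from -0.16 (N3) to 1.67 (N2) with a median of 0.71 in the marker-negative group. Il18r1 was well above background in Cy5 on 3 of 3 marker-positive arrays and on 4 of 6 marker-negative arrays, not on N3 and N5. In the reference channel it was well above background on none of the 9 arrays. P1 lay inside the marker-negative range, and the difference of 1.22 (SE 0.46, limma adjusted p = 0.185) did not pass. With slide as a fixed block it was 0.55, and with processed signals 3.0. Il18rap, the accessory chain, lies beside it, its RefSeq probe 48128 bases away (40789200 to 40789259). That probe read -1.46, -1.43 and -0.95 on P1, P2 and P3, and from -1.97 to -0.58 in the marker-negative group, and was well above background on 1 array of each group. The other Il18rap probe (40766201 to 40766260) was well above background on none of the 9 arrays and read between -0.19 and 0.18. Neither Il18rap probe was tested.

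**Figure D3:**
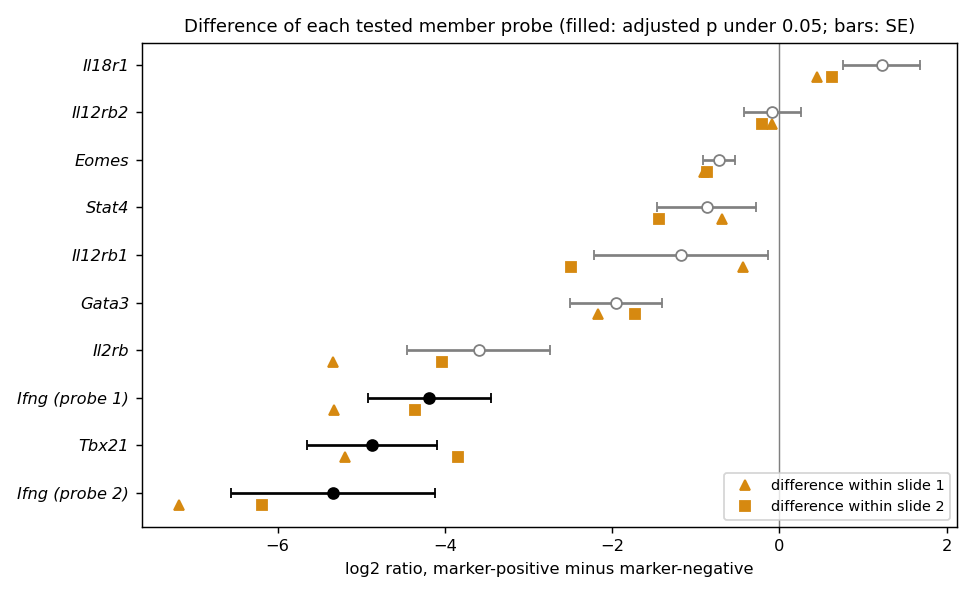
Difference between groups (horizontal axis, log2 ratio, marker-positive minus marker-negative) of each of the 10 tested member probes with its SE, filled where the limma adjusted p was under 0.05, and the differences within slide 1 (triangles) and slide 2 (squares). The within-slide values of Tbx21 and Ifng lie on the same side of 0 as the whole comparison, between -3.84 and -7.18, where P1 and P2 were at background for Ifng and Eomes, so that those values have only a bound, and Il18r1 is the 1 probe to the right of 0.

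The authors' deposited table, made by a processing not given in the sources used here, held all 12 probes with close to the same differences once its sign was turned to stem minus non-stem. In the authors' deposited table Tbx21 had -4.86 (adjusted p = 0.0138), and probe 2 of Ifng had -5.34 (adjusted p = 0.00253). The 10 spots of Ifng probe 1 are separate entries there, and in the authors' deposited table they ran from -4.21 to -4.06 with adjusted p-values between 0.00374 and 0.00648. In the authors' deposited table Eomes (adjusted p = 0.0352), Il2rb (adjusted p = 0.0192) and Gata3 (adjusted p = 0.0323) also lie under 0.05, where the fit here gave 0.0705, 0.0517 and 0.0908. Stat4 (0.363), Il12rb1 (0.227), Il12rb2 (0.937), Il18r1 (0.308) and Il18rap (0.71 and 0.968) had adjusted p-values above 0.05 in the authors' deposited table.

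The reference channel was not constant at the brightest member probes, and varied most at Ifng. At Ifng probe 1 the net Cy3 intensity of the common reference was 18.2, 18.1 and 18.9 on P1, P2 and P3, and from 19.5 (N3) to 790 (N4) in the marker-negative group, where the net Cy5 intensity ran from 483 (N3) to 48847 (N4). N6 had the next highest values in both channels, 327 in Cy3 and 16310 in Cy5. At Gata3, whose reference signal was bright, Cy3 ran from 1039 to 1477 over all arrays, a 1.42-fold range, against 43.7-fold at Ifng probe 1. The Cy3 range was 12.3-fold at Ifng probe 2, 3.97-fold at Il2rb and 3.58-fold at Tbx21. The highest net Cy5 at these was 64961, 77433 and 44454, all on N4. With the Cy5 channel alone the differences were -5.29 (limma adjusted p = 0.0417) for Ifng probe 1, -4.98 (0.0108) for Tbx21 and -4.41 (0.0307) for Il2rb. What raised Cy3 at the bright spots was not tested.

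**Figure D4:**
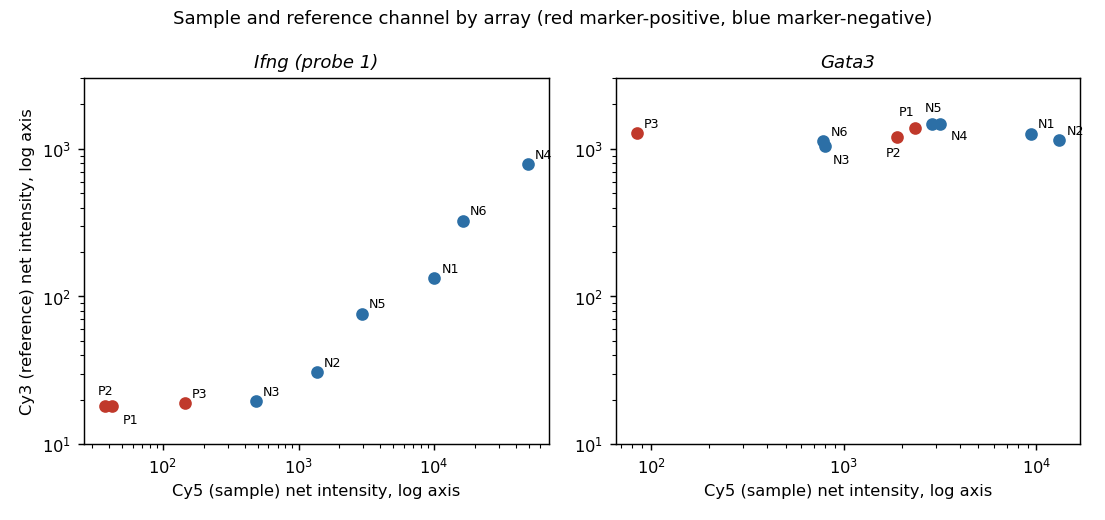
Net intensity of the reference channel (Cy3, vertical log axis) against that of the sample channel (Cy5, horizontal log axis) on each array, red for marker-positive and blue for marker-negative, for Ifng probe 1 and Gata3. At Ifng the Cy3 values climb with Cy5 from 18.1 to 790, and at Gata3 they stay between 1039 and 1477.

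The wider type 1 pathway had differences on both sides of 0. The list held 38 further genes for ligands, receptors, kinases and partner factors of these members, of which 37 were tested, 0 were higher and 1 was lower (limma), with 4 higher and 6 lower at an unadjusted p under 0.05. The list's median difference was 0.23 and 17 of 37 differences were below 0. Txk, a Tec-family kinase of T cells, was the gene that fell. It read -1.88, -2.04 and -1.24 on P1, P2 and P3, and from 0.08 (N2) to 4.26 (N4) with a median of 3.11 in the marker-negative group. Txk was well above background on 0 of 3 marker-positive arrays, and was at least 14.7-fold higher in the marker-negative group (limma adjusted p = 0.0409). The call ended with slide as a fixed block (adjusted p = 0.243), with median centring (adjusted p = 0.0794) and with no filter on dim probes (adjusted p = 0.0505). It also ended without P1, P2, N1, N5 or N6, which left 0 genes of the list lower, and without P3 the list had 2 higher and 3 lower. Without N2 it had 1 higher and 2 lower, and without N4 it had 2 higher and 1 lower.

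The largest pathway differences that did not pass belonged to chemokine genes of effector lymphocytes. Ccl5 differed by -4.10 (SE 1.04, limma adjusted p = 0.0658), Cxcr6, a receptor of tissue-resident lymphocytes, by -3.41 (SE 1.02, adjusted p = 0.105) and Xcl1, a ligand made by natural killer and CD8 T cells, by -3.03 (SE 1.03, adjusted p = 0.144). Their marker-positive arrays spread widely, from 1.56 to 7.42 for Xcl1 alone. Xcl1 passed without P3 (-4.79, limma adjusted p = 0.00082), with slide as a fixed block (-4.65, adjusted p = 0.0297), with Cy5 alone (-5.58, adjusted p = 0.0468) and with array weights (-4.41, adjusted p = 0.00118), but was at -0.39 with processed signals (adjusted p = 0.801) and at -1.86 without P2 (adjusted p = 0.44). Ccl5 passed without P3 (-5.39, limma adjusted p = 0.0129), without N2 (-4.58, adjusted p = 0.0432), with array weights (adjusted p = 0.00256) and with both channels detected on all arrays (adjusted p = 0.0428). Genes for the kinases Jak1 (1.12, adjusted p = 0.184) and Jak2 (1.19, adjusted p = 0.0743) and for the receptor chains Ifngr1 (0.38) and Ifngr2 (0.31) had differences above 0 that did not pass.

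Genes induced by interferon gamma lay on the opposite side from Ifng itself. Of 20 listed targets 19 were tested, 2 were higher in the marker-positive group, 0 were lower (limma, also 0 at an unadjusted p under 0.05, against 9 higher), and 19 of 19 differences were above 0 with a median of 1.46. Cxcl9, a chemokine that draws CXCR3-bearing T cells, read 4.32, 4.57 and 6.14 on P1, P2 and P3, and from 0.05 (N5) to 1.59 (N1) with a median of 0.96 in the marker-negative group. Its difference was 4.06 (SE 0.46, limma adjusted p = 0.00243). Gbp2, a guanylate-binding GTPase of cell-autonomous defence, read 2.93, 3.35 and 2.97 on P1, P2 and P3, and from -1.02 (N2) to 0.57 (N5) with a median of -0.13. Its difference was 3.19 (SE 0.38, limma adjusted p = 0.00324). The groups did not overlap at either gene, and both calls held without any 1 array. With slide as a fixed block Cxcl9 was at 3.17 (adjusted p = 0.0472) and Gbp2 at 3.22 (adjusted p = 0.0825), and with processed signals Cxcl9 no longer passed (adjusted p = 0.173).

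A further 3 targets with large differences did not pass: Iigp1 (4.81, limma adjusted p = 0.0658), Gbp3 (2.60, adjusted p = 0.162) and Cd274 (2.10, adjusted p = 0.0688). The mean over the 19 targets was 2.44, 2.88 and 2.32 on P1, P2 and P3 and lay between -0.24 (N2) and 1.40 (N6) on marker-negative arrays. N2, which had the least Ifng of that group, also had the least of its targets, and N6 had the most of both. Across the groups the order was the reverse, with the least Ifng and the highest targets on P1 and P2. Without P3, 6 targets were higher, and without N1, 3 were. Macrophage markers moved with this group of genes: 4 of 12 were higher in the marker-positive group (2 without P1), with an array mean of 3.43 to 4.45 against 0.16 to 2.89, and on no marker-negative array were Cd163 and Mrc1 well above background. Endothelial markers had a median difference of 2.19, with 1 of 8 higher (6 without P3) and an array mean of 0.93 to 5.09 against 0.82 to 2.27. General leukocyte genes had a median of 1.0, with 10 of 10 differences above 0, 0 of 10 higher (limma, 1 at an unadjusted p under 0.05) and an array mean of 1.15 to 2.94 against -1.05 to 2.56. The part of the macrophage, endothelial and leukocyte markers in the target genes was not tested.

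Among 12 tested genes of type 2 lymphocytes other than Gata3, Il4 was higher, 0 were lower (limma, also 0 at an unadjusted p under 0.05), and 4 had differences below 0, with a list median of 0.35. Il4, which encodes the interleukin-4 that drives type 2 responses, read 3.99, 3.49 and 4.82 on P1, P2 and P3, and from -0.14 (N3) to 0.63 (N6) with a median of 0.00 in the marker-negative group. The groups did not overlap, and Il4 was well above background on 3 of 3 marker-positive arrays and on 1 of 6 marker-negative arrays, N6. The means were 4.10 ± 0.68 (SD, n = 3) and 0.10 ± 0.28 (SD, n = 6), a difference of 4.0 (SE 0.29, limma adjusted p = 0.000224). It passed without any 1 array and with slide as a fixed block (3.68, adjusted p = 0.0297). Gata3, the factor that opens the Il4 locus in T helper 2 cells, had its difference on the other side of 0. Il13, the companion cytokine, differed by -0.06 (adjusted p = 0.962). Areg (1.78, adjusted p = 0.253), Il4ra (1.16, adjusted p = 0.382) and Il17rb (1.13, adjusted p = 0.334) had differences above 0 that did not pass. Mast cell markers, of which 4 of 10 were higher (2 without P1, P2, N1, N2, N5 or N6, and 6 without N3), had an array mean of 3.63 to 4.08 in the marker-positive group and of 0.71 to 3.01 in the marker-negative group, and their part in the Il4 difference was not tested.

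Of 7 tested genes of type 17 and regulatory T cells, 0 were higher and 0 lower (limma), with 1 higher and 1 lower at an unadjusted p under 0.05 and a median of -0.66. Without N4, Tnfrsf4 was lower. Ahr, the aryl hydrocarbon receptor, differed by 1.52 (adjusted p = 0.16). Tnfrsf4 (OX40) differed by -1.44 (adjusted p = 0.0915) and Tnfrsf18 (GITR), costimulatory receptors of activated and regulatory T cells, by -1.47 (adjusted p = 0.331). Foxp3, Il17a, Il22, Il23r and Ctla4 did not pass the filter on dim probes.

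Markers of natural killer, cytotoxic and T cells were mostly on the same side of 0 as Tbx21 and Ifng. Of 13 tested genes of natural killer and cytotoxic lymphocytes, 6 were lower, 0 higher (limma, also 0 at an unadjusted p under 0.05), and 13 had differences below 0, with a median of -2.61. Gzmb, a granzyme that triggers death of target cells, read 0.70, 0.70 and 0.85 on P1, P2 and P3, and from 5.42 (N2) to 6.25 (N3) in the marker-negative group, a difference of -5.12 (SE 0.28, limma adjusted p = 0.000073). Gzma differed by -6.65 (adjusted p = 0.00568) and Ctsw, a protease of cytotoxic cells, by -4.56 (adjusted p = 0.00576). On no marker-positive array were Gzmc, Ncr1 and Prf1 well above background. Gzmc passed (limma adjusted p = 0.00358) and was at least 107-fold higher in the marker-negative group. Ncr1 (adjusted p = 0.178) and Prf1 (adjusted p = 0.272) did not pass, with bounds of 3.04-fold and 3.26-fold. Klrd1 (CD94) and Klrg1 did not pass either, at -1.85 and -0.28, nor did Nkg7 (-2.61), Klrc1 (-1.88) and Klre1 (-1.10).

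The mean over the 13 cytotoxic genes was 0.67, 0.77 and 1.45 on P1, P2 and P3 and from 2.74 (N2) to 5.27 (N6) in the marker-negative group, and their summed Cy5 intensity ran from 2512 to 34513 against 22155 to 383053. P3 thus had the highest cytotoxic mean and sum of the marker-positive group, with the most Ifng and Il2rb but the least Tbx21. N2 had the lowest mean and sum of its group. At Klrd1 P3 read 8.23, against 3.12 on P1 and 3.45 on P2, and at Nkg7 5.65, against 1.55 and 2.15. Gzmc, Ctsw, Fasl, Klrb1c, Klre1 and Klrg1 read lower on P3 than on P1 and P2, and the other tested genes higher. Without P1 the count of lower cytotoxic genes was 4, and with slide as a fixed block it was 2. Of 15 T cell markers 3 were lower, 0 were higher (limma, also 0 at an unadjusted p under 0.05) and the median was -1.17. Cd3d differed by -5.27 (adjusted p = 0.0139) and Cd3g by -4.81 (adjusted p = 0.0399). Cd8a was well above background on 0 of 3 marker-positive arrays, entered the test through the marker-negative group, and was at least 21.4-fold higher there (limma adjusted p = 0.0151). Without P1, without P2 or with slide as a fixed block none of the list passed. Lck (-2.67, limma adjusted p = 0.0771), Lat (-1.70, adjusted p = 0.194) and Zap70 (-1.69, adjusted p = 0.211) did not pass. Cd3e (-0.12), Cd4 (0.32) and Cd2 (0.41) did not differ beyond the spread. Their part in the differences of Tbx21 and Ifng was not tested, and the design describes both fractions as lineage-negative.

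**Figure D5:**
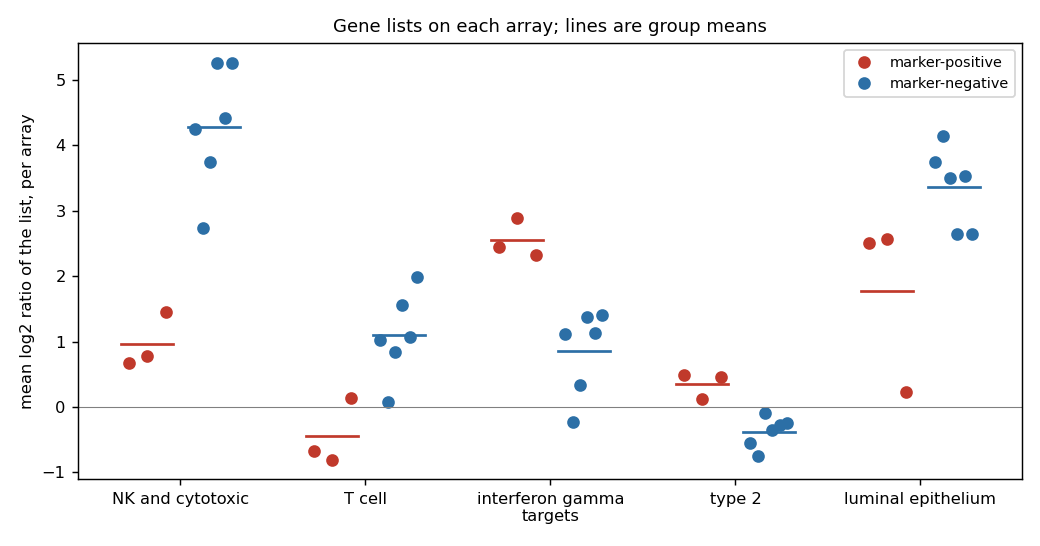
Mean log2 ratio of each gene list (vertical axis) on each array, red for marker-positive and blue for marker-negative, with group means as lines. The cytotoxic list lies at 0.67 to 1.45 against 2.74 to 5.27, and the interferon gamma targets at 2.32 to 2.88 against -0.24 to 1.40, so the gap between the groups runs in opposite directions for the cytotoxic list and the targets.

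Genes whose pattern over the 9 arrays was most like that of Tbx21 were named by Pearson r among all tested genes. They were Fasl, the death ligand of cytotoxic lymphocytes (0.992), Klhdc7a (0.969), the granzyme gene Gzmc (0.968), Trub1 (0.967) and the T cell coreceptor gene Cd8a (0.967). For Ifng, by probe 1, which had the higher mean intensity over both channels, they were Gzma (0.984), Cd3d (0.968), Cd3g (0.966), Cd8a (0.966) and the T cell receptor segment Trbv14 (0.964). Over the 6 marker-negative arrays alone, r was 0.974 for Fasl with Tbx21 and 0.943 for Gzma with Ifng. For Eomes they were Hdhd5 (0.953), Marveld3 (0.938), AV264460 (0.933), TC1482443 (0.932) and Vnn3 (0.932), none of them a gene of the lymphocyte lists. The difference between the groups shapes every r over 9 arrays, and no test was made.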

How the data were processed

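The scanner files hold raw intensity values of both channels and processed intensities, background-subtracted and dye-normalized by Agilent Feature Extraction (10.7.3.1 per the file headers, 10.7 in the submitters' processing notes). The authors' deposited table gives log2 differences, adjusted p-values, signed fold values and score columns of limma, which were not used, all made by a normalization not given in the sources used here. Its sign was turned to stem minus non-stem.

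From the mean intensities, limma 3.58.1 in R 4.3.3 computed log2 ratios by normexp (offset 50, median local background) and loess within arrays, with control and outlier spots at weight 0. Outlier spots were dropped, and the remaining spots of each probe were averaged. A probe was tested if 3 or more arrays had it well above background in Cy5, with limma's moderated test (trend, robust, two-sided). For each gene the tested probe with the highest mean intensity of both channels was used. Bounds used Cy5 values after loess and Aquantile, and fits with Cy5 alone also followed loess, which draws on Cy3. On each dim array a bound took the reading or, where higher, the lowest Cy5 value of any probe well above background. The bright group's mean was set over the mean of these. Bounds are open to dye bias because no dyes were swapped. Coordinates are those of probes in the files, build mm7. The exon structure in mm7 was not used here. Promoter windows came from RefSeq, GRCm38.p6.

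The members, the gene lists and the tests were chosen with earlier results of these data known. Named list genes were up to 4 per list that passed, by smallest adjusted p, and up to 3 that did not, by largest difference. Others from the lists were chosen after their values were seen. They were Jak1, Jak2, Ifngr1, Ifngr2, Il13, Klrd1, Klrg1, Nkg7, Klrb1c, Klrc1, Klre1, Cd3e, Cd4, Cd2 and genes that were not well above background. The procedure was also run on simulated data for 3 against 6 arrays with 28340 probes. It recovered 9% of 100 probes at a log2 change of 1 and 88% of 100 at a log2 change of 4, with 3 false calls among 100. The simulated noise was normal and independent between probes and arrays, with 1 SD per probe and no slide effect or deviating array. It therefore does not show how many false calls the real arrays hold. Plots were drawn with matplotlib 3.10.9.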

Additional observations from a re-analysis of the deposited data

Results flagged for a closer look

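Among the 6 marker-negative arrays, Il4 on N6 stood apart from the others in its group. It read 0.63, with the next highest array at 0.13, and the gap was 0.647 of the group's range above Dixon's critical value for 6 samples. N6 was the 1 marker-negative array on which Il4 was well above background. Of 28 probes examined in this way 1 was marked, and chance marks about 1 in 20 groups.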

How the results depend on the processing

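No paired analysis was possible because the replicate numbers only count arrays in accession order, and slide was used as a block instead. Of 19857 genes, 311 were higher and 332 lower. Array weights, which gave P3 a weight of 0.243, gave 2199 and 2262, median centring 141 and 85, slide as a fixed block 128 and 20, and slides 1 and 2 alone 0 and 0. Leaving out 1 array gave 101 to 933 and 89 to 496, with the highest counts without P3 and the lowest higher count without P1. The 3 lower member probes became 6 with array weights, 1 with processed signals, 0 with slide as a fixed block, 0 on slides 1 and 2 alone, and 1 to 4 without 1 array. The member probes that were higher stayed at 0 under every alternative. The difference of Il12rb2 reversed to 0.02 without N3, 0.01 without N5, 0.11 without P1 and 0.15 without P2 (-0.51 to 0.15 without 1 array), and no other member probe changed sign. Calls were gained by Eomes (adjusted p = 0.00549) and Gata3 (0.0138) with array weights. Il2rb passed with Cy5 alone, array weights, both channels detected on all arrays, median centring and slide as a random block. Ifng probe 2 no longer passed with median centring, no filter on dim probes or processed signals, and Ifng probe 1 with processed signals. Slides 1 and 2 alone, with 5 arrays, left none of the members, Cxcl9, Gbp2, Il4 or Txk past the threshold. The cause of these changes was not tested. Signal near background limits what can be read for Eomes, Il18r1 and Il18rap.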
